A study of Homo sapiens with 9 samples.

Results

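Rescued MM1S cells, which combine the PHF19 knockdown with an shRNA-resistant PHF19, were compared gene by gene with cells given an empty vector. The 5 libraries were chosen by their labels, as 2 of KD_Rescued and 3 of shEV, out of 9 in the series. MM1S is a human multiple myeloma cell line, a cancer of antibody-secreting plasma cells, and it carries a translocation that places the transcription factor MAF under immunoglobulin heavy chain control. The empty vector cells had been infected with a lentivirus without an shRNA, the knockdown cells (PHF19-KD, 3 libraries) with a lentivirus encoding an shRNA against PHF19, and the rescued cells are labelled by the resistant PHF19. All were grown in RPMI medium with serum and antibiotics. The labels name no clone and no culture of origin, and they list no library of cells given the PHF19 construct without the knockdown, or a second empty vector for it. A ninth library, titled as a knockdown but labelled with the resistant PHF19, was left out.

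PHF19 is one of the Polycomb-like proteins that associate with PRC2, the Polycomb enzyme complex responsible for methylation of lysine 27 on histone H3. EZH2 or EZH1 carries the catalytic activity, with EED and SUZ12 as core partners, and Polycomb-like proteins help recruit the complex to CpG-rich promoters. The mark is associated with silencing of developmental regulators, and PHF19 is abundant in dividing cells, myeloma cells included. A comparison of rescued with empty vector cells asks which genes were not at the control level in knockdown cells supplied with PHF19, and which lay beyond it.

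Levels are given as CPM, the estimated reads of a gene relative to the scaled depth of its library, and differences as log2 of rescued over empty vector ± standard error from edgeR's quasi-likelihood fit. A gene is called when its Benjamini-Hochberg adjusted p over all 16600 genes tested was below 0.05. The depth was 16974728 to 22739741 estimated reads in the empty vector libraries and 23644123 to 23751353 in the rescued libraries. The library descriptions place the empty vector and knockdown libraries on sequencing lane 6 and both rescued libraries on lane 2. In every comparison of rescued cells with another group, the lane cannot be told apart from the rescue. Replicates of the rescued group differed by 1.74 times the sampling variance (chi-square per degree of freedom over 6974 genes), and empty vector replicate 3 stood apart from the other 2, at 8.14 and 9.15 times against 2.25 between those. Counts were not whole numbers in 3 or more of the 5 libraries for 48.5% of the genes tested, as happens when a program divides reads among features, and values of such genes are less certain. Nothing in the labels says that replicates were separate cultures, so the p-values rest on a spread between libraries that may be only technical.

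PHF19 itself was above its control level in the rescued cells. Its level was 123, 124 and 103 CPM in the 3 empty vector libraries, 26, 27.5 and 27.3 CPM in the 3 knockdown libraries and 220.0 and 218 CPM in the 2 rescued libraries. Both rescued libraries lay above every empty vector library, and every knockdown library lay below. Rescued and empty vector libraries did not overlap in 61.7% of all genes tested, so a lack of overlap does not by itself set a gene apart. The rescued cells were higher by 0.91 ± 0.070 on the log2 scale (edgeR adjusted p = 2.46e-06), a call that held in every alternative analysis. The count does not separate RNA of the endogenous gene from RNA of the construct.

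Of the 16600 genes tested, 6599 (39.8%) were called between rescued and empty vector cells, 3436 higher (20.7%) and 3163 lower (19.1%) in the rescued cells. Most of these differences were small. The call came with a change of at least 2-fold in 1216 genes (7.33%), and 906 of those were higher (5.46%) and 310 lower (1.87%). The median absolute log2 difference over all genes was 0.27, against 0.58 between knockdown and empty vector cells, where 11476 genes (69.1%) were called. Both comparisons use the same 3 empty vector libraries. In bulk libraries, fewer cells expressing a gene and less RNA per cell cannot be told apart. The direction of the calls depended on scaling: 52.1% of calls were higher with TMM scaling, 43.7% with RLE scaling and 42.3% with DESeq2, while the median over all genes moved from 0.015 to -0.031 with RLE scaling and to -0.032 with DESeq2.

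The called genes were sorted by what the same gene did in the knockdown cells. Words such as still, back, returned, recovered and past compare levels of separate libraries. They do not describe a culture followed over time. Still different after rescue were 3823 genes (23.0% of those tested, 33.3% of those called in the knockdown), which were called on the same side of the empty vector in knockdown and rescued cells: 1964 higher and 1859 lower. Among them 1894 had moved part of the way back by a call between rescued and knockdown cells (a comparison in which 63.4% of all genes were called), 1611 had no call between rescued and knockdown cells, and 318 were further from the empty vector than in the knockdown. Past the empty vector level were 1357 genes (8.17%), called on the opposite side to the knockdown, 681 higher and 676 lower. Another 1419 genes (8.55%) were called in the rescued cells only. Differences of 2-fold or more were unevenly spread: among genes still different 641 were higher and 104 lower, among genes past the empty vector level 47 were higher and 79 lower. For comparison, 6296 of the genes called in the knockdown (54.9%) had no call between rescued and empty vector cells, which does not show that they were equal.

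**Figure D1:**
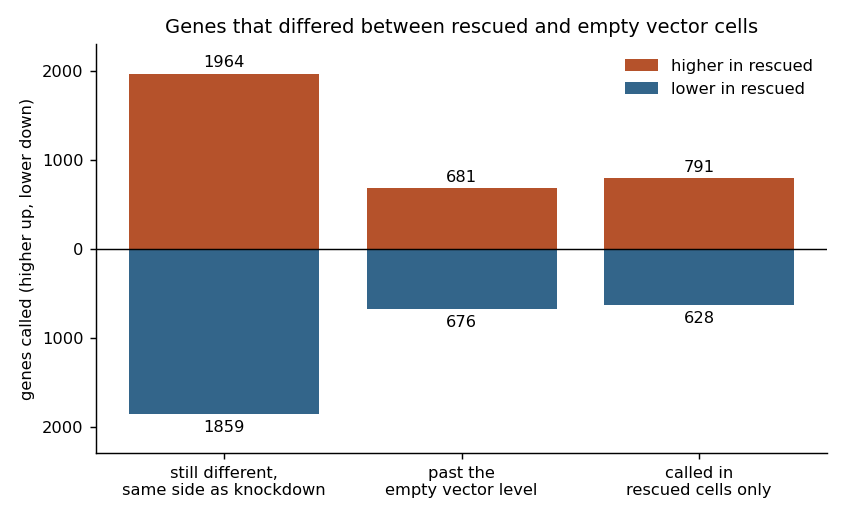
Number of genes called between rescued (2 libraries) and empty vector cells (3 libraries), upward for higher and downward for lower, by what the gene did in the knockdown. The class still different from the control is the largest, with 1964 genes higher and 1859 lower.

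Among the fits that left out 1 library, those without a rescued library had the fewest calls. Without rescued replicate 1, 4253 genes were called, of which 2535 were still different, 817 past the empty vector level and 901 in rescued cells only. Without rescued replicate 2 the counts were 4048, 2396, 816 and 836. In each of these fits the remaining rescued library is assumed to vary like the other groups.

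The direction of the calls followed the base composition of the transcript. GC content of the longest annotated transcript was available for 13790 of the genes tested (83.1%). Its median was 52.3% in genes called higher, 44.8% in genes called lower and 48.0% in all genes. The genes were split into 5 groups of equal size by GC content, and from the lowest to the highest group the share called higher went from 13.1% to 31.5% and the share called lower from 30.3% to 8.59%. The median log2 difference between knockdown and empty vector cells, which were on the same lane, also went from -0.23 to 0.25 over these groups. The part of GC content in the gene results below was not tested. With a GC correction per library, 7516 genes were called, 6024 of them also called with the same sign without it.

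**Figure D2:**
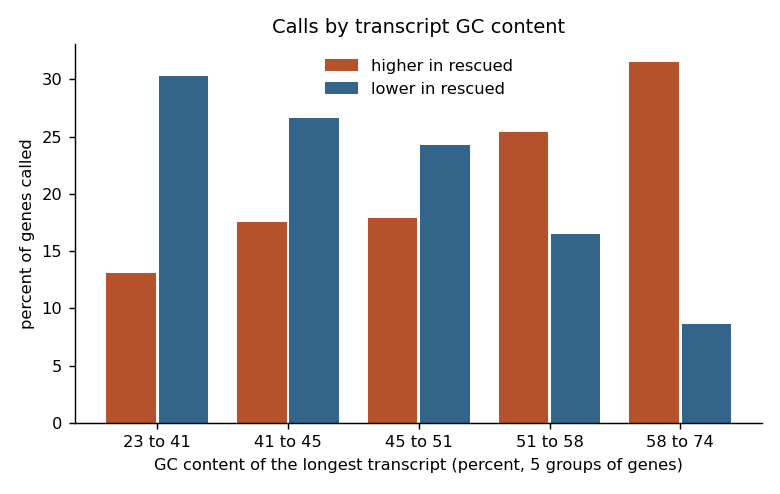
Percent of genes called higher and lower in rescued than in empty vector cells, in 5 groups of genes of equal size by GC content of the longest transcript (horizontal axis, percent). The share called higher is 13.1% in the lowest group and 31.5% in the highest.

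Named lists of genes differed widely in how many members were called. The lists and the direction of their calls are shown together in the plot of calls by gene list, where the dashed lines give the share among all genes. Counts of members called in every list below stand against these shares, 20.7% higher and 19.1% lower. Among lists with at least 14 genes tested, mitochondrially encoded RNAs, MHC class II and endoplasmic reticulum (ER) folding genes held the largest shares of higher calls, and cytosolic ribosomal proteins, plasma cell identity and DNA replication genes the largest shares of lower calls.

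**Figure D3:**
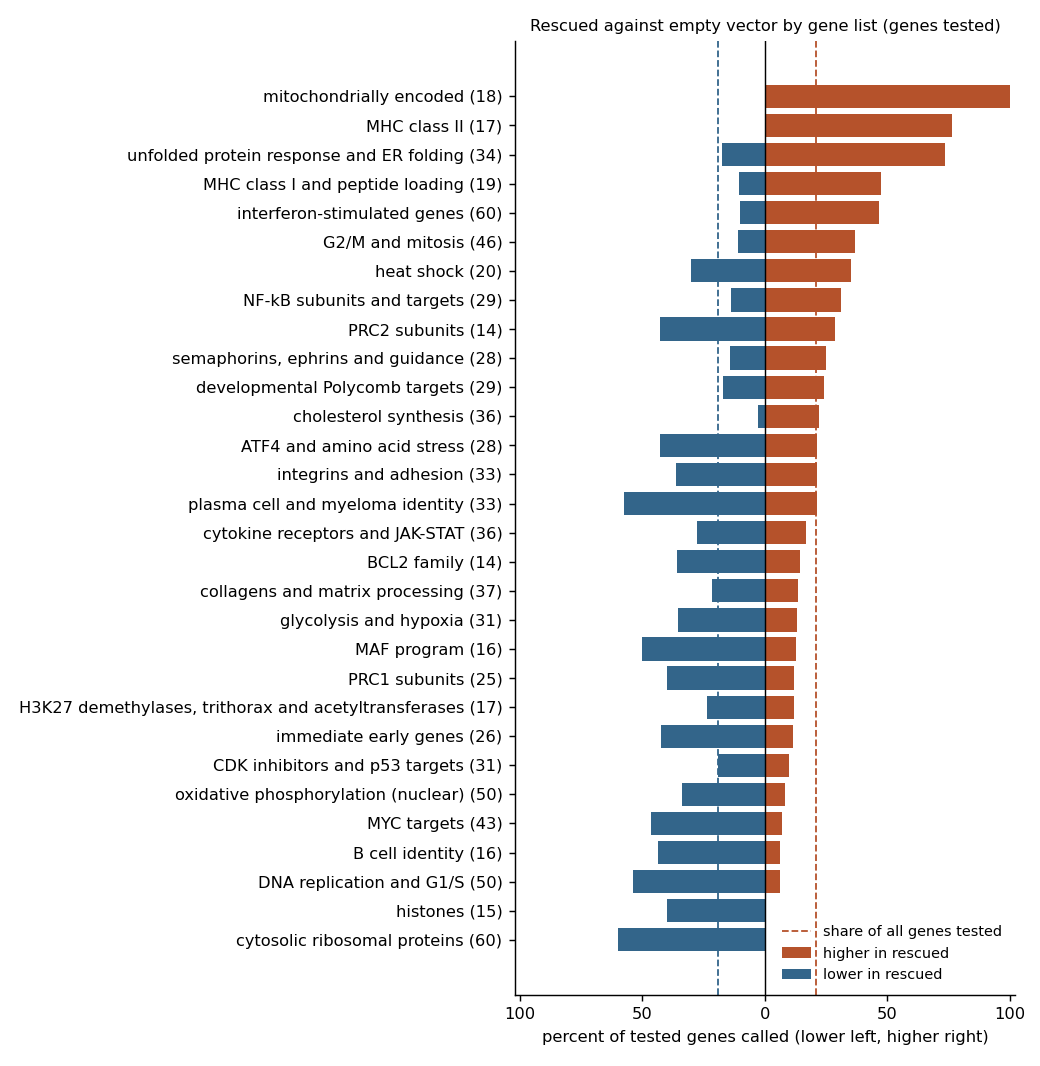
Percent of the tested genes of each list with at least 14 tested called higher (right) or lower (left) in rescued than in empty vector cells, with the number tested in parentheses and dashed lines at the shares among all 16600 genes (20.7% higher, 19.1% lower). All 18 mitochondrially encoded RNAs were called higher and 36 of 60 cytosolic ribosomal proteins lower.

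Among the 14 tested subunits of PRC2, 4 were higher and 6 lower in rescued cells, with a median log2 difference of -0.13, against 0.015 over all genes. This count and median include PHF19, the gene that the construct supplied. The other higher subunits were PHF1, EZH1 and EED. Without PHF19 the share called higher was near the 20.7% of all genes tested. PHF1, another Polycomb-like protein, stood at 16.4, 16.4 and 13.2 CPM in the empty vector and 26 and 27 CPM in the rescued libraries, a log2 difference of 0.79 ± 0.093 (edgeR adjusted p = 5.55e-05). Its knockdown mean was 31.8 CPM, so PHF1 had moved part of the way back. EZH1, the alternative methyltransferase, was likewise higher, at 62.1 and 60.1 CPM against 48.2, 44.3 and 47.1 CPM, with a knockdown mean of 87.5 CPM. The rescued libraries lay above every control library for both genes.

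EZH2, the main methyltransferase of dividing cells, was at 131, 133 and 133 CPM in the empty vector and 143 and 144 CPM in the rescued libraries. The libraries did not overlap, but the difference of 0.12 ± 0.057 was not called (edgeR adjusted p = 0.12); the knockdown mean was 32.8 CPM. SUZ12, a core scaffold, was lower by a small step, from 194, 189.6 and 213 CPM to 169 and 161 CPM (log2 difference -0.27 ± 0.056, edgeR adjusted p = 0.00254). AEBP2, a cofactor of the PRC2 variant without Polycomb-like proteins, and C10orf12, a protein associated with PRC2, did not move back toward the control. C10orf12 measured 8.68, 7.79 and 9.97 CPM in the empty vector, 4.47, 4.38 and 3.73 CPM in the knockdown and 4.74 and 4.21 CPM in the rescued libraries. Rescued and knockdown libraries of C10orf12 overlapped, all below the empty vector, and the log2 difference from the empty vector was -0.97 ± 0.14 (edgeR adjusted p = 0.000229). AEBP2 differed by -0.34 ± 0.067 (edgeR adjusted p = 0.00177).

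PRC1, the second Polycomb complex, ubiquitylates histone H2A and contains a PCGF subunit that defines each variant. Of its 25 tested subunits 3 were higher and 10 lower (median -0.18). BMI1, the PCGF subunit of a canonical variant, was at 71.7, 68.8 and 78.1 CPM in the empty vector and 52.9 and 42.5 CPM in the rescued libraries, below every control library and further away than the knockdown mean of 57.8 CPM (log2 difference -0.61 ± 0.087, edgeR adjusted p = 0.00023). PCGF5 and PCGF6, which mark non-canonical variants, differed by -0.62 and -0.67. PCGF3 went the other way, from 13.9, 12 and 13.7 CPM to 21 and 20.5 CPM (log2 difference 0.65 ± 0.091). Among H3K27 demethylases, trithorax proteins and acetyltransferases, 2 of 17 were higher and 4 lower, among the lower ones the demethylase KDM6A at -0.32, the H3K36 methyltransferase NSD1 at -0.37 and the acetyltransferase EP300 at -0.27. Without empty vector replicate 3 the number higher in that list was 4, and without either rescued library, or with DESeq2 or RLE scaling, it was 1.

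Developmental regulators of the kind silenced by Polycomb were mostly too low to test. The filter on low counts was passed by 29 of 105 listed genes. Of these 7 were higher and 5 lower, near the shares among all genes (20.7% higher, 19.1% lower). HOXC4, a homeobox transcription factor, was close to 0 in the empty vector at 0.181, 0.152 and 0.295 CPM and reached 1.41 and 1.96 CPM in the rescued libraries. This was above every empty vector library, with a log2 difference of 3.0 ± 0.39 (edgeR adjusted p = 0.000101). It was also above every knockdown library (1.21, 0.91 and 0.781 CPM), but HOXC4 had no call between rescued and knockdown cells (edgeR adjusted p = 0.055). HOXB3 was at 3.84, 3.54 and 3.42 CPM in the control and 5.86 and 6.18 CPM in the rescued libraries, with a knockdown mean of 9.37 CPM. WNT5A, a secreted ligand of non-canonical Wnt signalling, was past the control: 0.814, 0.708 and 1.12 CPM in the empty vector, 0.279, 0.165 and 0.0867 CPM in the knockdown and 2.45 and 2.46 CPM in the rescued libraries. For WNT5A the 3 groups did not overlap, and the knockdown and rescued cells lay on opposite sides of the control.

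Other homeobox and T-box genes were lower. HOXA10 stood at 3.26, 3.44 and 3.42 CPM in the empty vector and 1.08 and 1.5 CPM in the rescued libraries (log2 difference -1.38 ± 0.24, edgeR adjusted p = 0.000879). HOXB7 had no call in the knockdown and was at 5.52, 4.85 and 4.95 CPM in the empty vector against 2.41 and 2.3 CPM in the rescued libraries. TBX2 rested on 46 reads in the empty vector libraries together and 3 in the rescued libraries, a ratio of 12.5 with a 95% counting interval of 4.02 to 62.9 (exact Clopper-Pearson; such intervals cover counting error only). Its fitted log2 difference of -3.50 was -2.58 without rescued replicate 1 and -6.73 without rescued replicate 2. For this list the number higher was 4 without either rescued library, and the number lower was 3 without rescued replicate 1 and 2 without empty vector replicate 2; with DESeq2, 4 were higher.

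Most ER folding genes went past the control level. Plasma cells secrete large amounts of antibody, and the unfolded protein response matches the folding capacity of the ER to that load through the sensors IRE1 (ERN1), PERK (EIF2AK3) and ATF6. Spliced XBP1 and cleaved ATF6 act on ER stress response elements in the promoters of chaperone genes. The element ERSE was searched as CCAAT and CCACG with 9 bases of any kind between them, and ERSE-II as ATTGG and CCACG with 1 base between them. Both were searched on either strand in the 250 bases before the annotated start in the RefSeq promoter table (GRCh38.p14). ERSE occurred in 22 of 27305 promoters (0.0806%) and ERSE-II in 14 (0.0513%). Of the 34 tested genes of the ER list 29 had a promoter entry, 6 with ERSE and 3 with ERSE-II, and of these 9 genes 7 were called higher, 1 (XBP1) lower and 1 (CANX) not called. The promoters of 5 of them are shown with the matches in capitals, the 4 with the largest rises among the 9 and that of XBP1, the one that fell; a match is a description of letters, not a measured binding site.
CRELD2 promoter, chr22:49918384-49918633, plus strand: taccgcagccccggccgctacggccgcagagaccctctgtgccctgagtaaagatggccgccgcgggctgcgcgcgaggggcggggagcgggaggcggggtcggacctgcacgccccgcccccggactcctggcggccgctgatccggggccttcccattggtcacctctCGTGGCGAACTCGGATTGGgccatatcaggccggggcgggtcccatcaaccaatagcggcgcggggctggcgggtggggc
HSPA5 promoter, chr9:125241344-125241593, minus strand: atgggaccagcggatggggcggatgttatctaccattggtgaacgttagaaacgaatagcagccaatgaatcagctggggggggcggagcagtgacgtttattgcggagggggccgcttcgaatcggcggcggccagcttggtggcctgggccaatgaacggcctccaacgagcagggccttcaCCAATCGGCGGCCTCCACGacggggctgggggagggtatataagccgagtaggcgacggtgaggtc
SDF2L1 promoter, chr22:21642052-21642301, plus strand: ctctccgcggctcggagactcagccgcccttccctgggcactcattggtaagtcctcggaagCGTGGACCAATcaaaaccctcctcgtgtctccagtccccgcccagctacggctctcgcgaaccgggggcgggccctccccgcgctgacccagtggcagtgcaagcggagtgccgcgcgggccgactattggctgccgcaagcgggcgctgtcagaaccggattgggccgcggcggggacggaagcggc
HYOU1 promoter, chr11:119057206-119057455, minus strand: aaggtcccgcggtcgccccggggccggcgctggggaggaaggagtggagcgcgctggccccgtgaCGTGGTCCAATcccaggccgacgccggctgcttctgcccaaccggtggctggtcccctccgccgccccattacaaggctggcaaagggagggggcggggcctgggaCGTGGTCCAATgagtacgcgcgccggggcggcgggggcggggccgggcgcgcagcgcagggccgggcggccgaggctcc
XBP1 promoter, chr22:28800570-28800819, minus strand: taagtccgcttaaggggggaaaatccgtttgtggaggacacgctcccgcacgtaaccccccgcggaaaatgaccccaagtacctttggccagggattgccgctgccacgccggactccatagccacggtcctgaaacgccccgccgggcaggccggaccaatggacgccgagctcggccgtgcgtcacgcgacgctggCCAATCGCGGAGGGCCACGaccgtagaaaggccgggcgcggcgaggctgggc

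Of the 34 tested genes of ER folding and the unfolded protein response, 25 were higher and 6 lower in rescued cells, with a median log2 difference of 0.32; 20 were past the empty vector level and 8 still different. CRELD2, an ER-resident protein induced by ER stress, had the largest rise. It was at 35, 34.1 and 26.9 CPM in the empty vector and 95.3 and 96.7 CPM in the rescued libraries, against a knockdown mean of 25.4 CPM. The rescued libraries were far above both other groups, with a log2 difference of 1.58 ± 0.089 (edgeR adjusted p = 4.25e-07). HSPA5, the main ER chaperone BiP, was at 738, 756 and 833 CPM in the empty vector and 1319.5 and 1340.3 CPM in the rescued libraries (log2 difference 0.78 ± 0.052, edgeR adjusted p = 9.19e-07). MANF, a secreted ER stress protein, went from 85.3, 89.6 and 82.2 CPM to 153 and 153 CPM, on the other side of the control from the knockdown mean of 39.1 CPM. The rescued libraries of both genes lay above every other library.

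Cochaperones and parts of the secretory route rose with them. SDF2L1 and HYOU1, whose promoters carry ERSE-II in the sequences shown, differed by 0.68 ± 0.19 and 0.64 ± 0.051. DNAJB9, a cochaperone of BiP, differed by 0.72, SEC61B, a subunit of the ER translocon, by 0.66, and PDIA4, a disulfide isomerase, by 0.57. Control and rescued libraries of SDF2L1 stood close, at 46.4, 58.9 and 34.1 CPM and 77.6 and 71.4 CPM. The oxidase ERO1LB was further from the control than the knockdown, at 4.3, 3.99 and 4.48 CPM in the empty vector, 5.67, 5.63 and 6.59 CPM in the knockdown and 11.9 and 12.4 CPM in the rescued libraries.

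The sensor and transcription factor at the head of the IRE1 branch were among the 6 lower genes. XBP1 stood at 1174, 1219 and 1326 CPM in the empty vector and 877 and 894 CPM in the rescued libraries, with a knockdown mean of 1363 CPM (log2 difference -0.48 ± 0.053, edgeR adjusted p = 3.09e-05). The gene count does not distinguish spliced from unspliced XBP1 RNA. ERN1, the sensor IRE1, was at 234, 229.7 and 225 CPM in the empty vector and 169 and 162 CPM in the rescued libraries (log2 difference -0.47 ± 0.048). Both genes were below every control library in both rescued libraries. SEL1L, an adaptor of ER-associated degradation, differed by -0.25, and EIF2AK3, the sensor PERK, by 0.29 in the other direction. The counts of HSPA5, CRELD2, DNAJB9, XBP1 and EIF2AK3 were not whole in 3 or more of the 5 libraries.

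**Figure D4:**
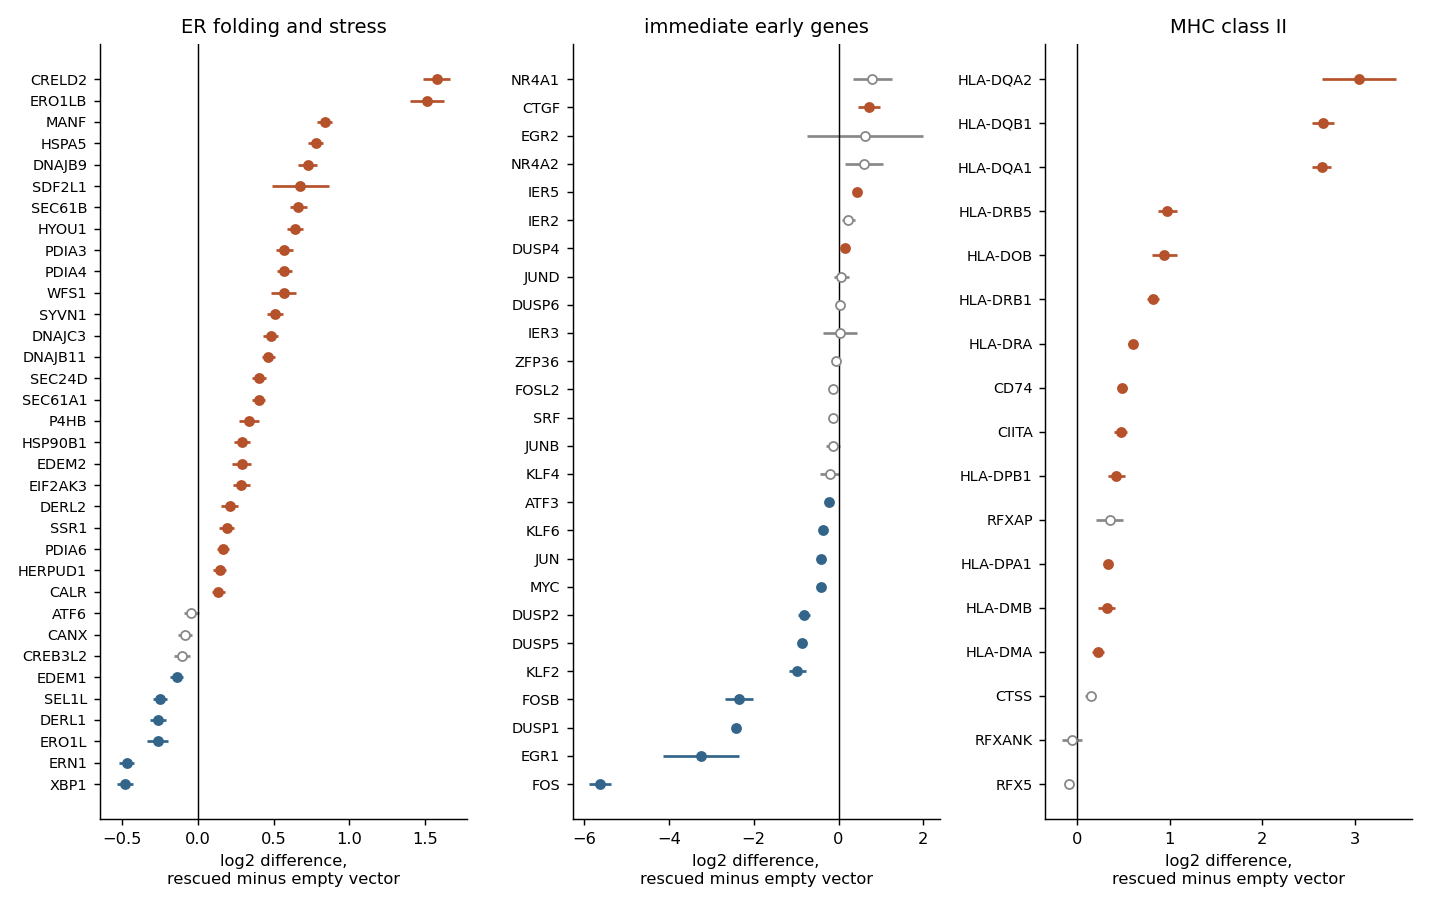
Log2 difference between rescued (2 libraries) and empty vector cells (3 libraries) for each tested gene of 3 lists, with bars of 1 standard error; filled points passed edgeR's adjusted p of 0.05, red higher and blue lower. ER folding genes lie mostly right of 0 with XBP1 and ERN1 on the left, FOS is the lowest immediate early gene, and no MHC class II gene was called lower.

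Related stress programs moved in part. Of 28 ATF4 targets and amino acid stress genes, 6 were higher and 12 lower (median -0.11). The regulators ATF4 and DDIT3 were higher: ATF4 was at 356, 351 and 364 CPM in the empty vector and 485 and 493 CPM in the rescued libraries, and DDIT3 at 5.7, 5.66 and 6.67 CPM and 12.9 and 13.1 CPM. Both had rescued libraries above every control library. Enzymes of amino acid and one-carbon metabolism differed in direction. CBS, of transsulfuration, was higher by 1.13 ± 0.22, while PHGDH of serine synthesis differed by -0.67 ± 0.079, MTHFD2 by -0.35 ± 0.049 and asparagine synthetase ASNS by -0.33 ± 0.053. Without rescued replicate 1 the number lower in this list was 6, and without rescued replicate 2 it was 5. Among 20 heat shock genes 7 were higher and 6 lower, with the cytosolic chaperone HSPA8 at 0.41 and its cochaperones DNAJA1 at 0.62 and DNAJB1 at 0.52, and the mitochondrial chaperone HSPD1 at -0.37. The 6 lower heat shock calls were 2 without rescued replicate 1 and 3 without rescued replicate 2.

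Of the genes of DNA replication, 27 of 50 were still called below the control. All 50 tested genes of DNA replication and the G1/S transition were called lower in the knockdown (34.2% of all genes were), and in rescued cells 27 were still lower, 3 were past the control and 20 were not called (median -0.22). PCNA, the sliding clamp of the replicative polymerases, was at 412, 434 and 459 CPM in the empty vector, 51.5, 50.7 and 51.9 CPM in the knockdown and 281 and 278 CPM in the rescued libraries. Rescued cells had recovered most of the level but stayed below every control library (log2 difference -0.64 ± 0.051, edgeR adjusted p = 3.11e-06). PRIM1, the primase subunit, went from 47.8, 44.7 and 52 CPM in the empty vector to 27.3 and 30.0 CPM in the rescued libraries, and MCM6, part of the replicative helicase, from 305, 314 and 331 CPM to 229 and 231 CPM. Their log2 differences were -0.75 ± 0.076 and -0.46 ± 0.048. The other direction was taken by ORC6 of the origin recognition complex, at 0.46, and POLE, the catalytic subunit of a leading strand polymerase, at 0.32.

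Mitotic genes showed another balance. All 46 tested genes of G2/M and mitosis were lower in the knockdown, and in rescued cells 17 were past the control, 5 were still lower and 24 were not called, with a median of 0.041. CDCA3, a regulator of mitotic entry, was at 35.9, 31.1 and 33.7 CPM in the empty vector, 6.54 CPM on average in the knockdown and 62.2 and 62.8 CPM in the rescued libraries. KIF20A, a kinesin of cytokinesis, was at 36.7, 39.1 and 40.6 CPM and 60.2 and 59.6 CPM in control and rescued libraries, and ANLN, an actin-binding protein of the cleavage furrow, at 35.1, 34.5 and 38.8 CPM and 55.9 and 53.9 CPM. For these 3 genes the rescued libraries lay above every control library, with log2 differences of 0.89 ± 0.070, 0.63 ± 0.066 and 0.60 ± 0.069. The still lower genes included the spindle kinesin KIF11 at -0.54 ± 0.059 and the checkpoint proteins BUB3 at -0.39 ± 0.049 and MAD2L1 at -0.43 ± 0.086. The mitotic counts moved with single libraries and with scaling: 10 were higher without rescued replicate 1, 9 without rescued replicate 2 and 11 with DESeq2, the number lower was 3 without rescued replicate 2 and 8 with RLE scaling, and the median was -0.0053 with RLE scaling, -0.0070 with DESeq2 and -0.0095 without the filter. Among genes whose counts were whole in at least 3 of the 5 libraries, a subset that leaves out genes by construction, 4 were higher and 3 lower, with a median of -0.031. Counts of CDCA3, KIF20A and ANLN were not whole in 3 or more libraries. The difference in direction between the replication and mitotic lists was not tested.

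Cell cycle inhibitors and D-type cyclins differed by gene. CDKN1A, the p53 target p21, was past the control at 37, 36 and 32.4 CPM in the empty vector, 63.6 CPM on average in the knockdown and 21.3 and 21.8 CPM in the rescued libraries (log2 difference -0.71 ± 0.072). MDM2, the ubiquitin ligase of p53, was at 219.6, 221 and 242 CPM and 139.6 and 137 CPM (log2 difference -0.72 ± 0.054). CDKN2C, the inhibitor p18 of CDK4 and CDK6, was almost absent from the control, with 2 reads over its 3 libraries, and had 105 reads over the 2 rescued libraries, a ratio of 64.3 with a 95% counting interval of 17.4 to 538. The rescued libraries were unequal, at 3.62 and 0.751 CPM, and the fitted log2 difference of 5.73 was 4.18 without rescued replicate 1, 6.43 without rescued replicate 2 and 8.28 without empty vector replicate 3. In the whole list of CDK inhibitors and p53 targets 3 of 31 were higher and 6 lower; without the filter 10 were lower, and with a GC correction 5 were higher and 11 lower.

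CCND1, a D-type cyclin, had not returned and was further from the control than in the knockdown: 10.0, 9.56 and 8.97 CPM in the empty vector, 2.88, 2.48 and 2.86 CPM in the knockdown and 1.37 and 1.88 CPM in the rescued libraries. The 3 groups did not overlap, and the rescued cells differed from the control by -2.55 ± 0.16 (edgeR adjusted p = 7.15e-07). CCND2, a D-type cyclin and MAF target, was part of the way back, at 517, 528 and 491 CPM in the empty vector, 126 CPM on average in the knockdown and 344 and 319.6 CPM in the rescued libraries (log2 difference -0.63 ± 0.052). Of 43 MYC targets 3 were higher and 20 lower (median -0.15), and 41 had been lower in the knockdown. The nucleolar proteins NOP56 and NOP2 were past the control at 0.40 and 0.25, while NOLC1 at -0.44, the helicase EIF4A1 at -0.54 and ornithine decarboxylase ODC1 at -0.42 were still lower. Without rescued replicate 2 the number lower among MYC targets was 13.

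Immediate early genes, which respond to growth factor and stress signals within minutes, included several large falls. In rescued cells 11 of 26 were lower and 3 higher (median -0.12), and 7 of these were past the control after a rise or fall in the knockdown. FOS, the AP-1 transcription factor, was at 6.06, 7.38 and 6.02 CPM in the empty vector, 17.9, 19.8 and 18.4 CPM in the knockdown and 0.125 and 0.125 CPM in the rescued libraries. The knockdown lay above and the rescued cells far below the control, with a log2 difference from the control of -5.62 ± 0.25 (edgeR adjusted p = 6.22e-08). DUSP1, a phosphatase that switches off MAP kinases, had the same order: 28.8, 28.7 and 27.2 CPM, 96, 94.6 and 93.4 CPM and 5.2 and 5.38 CPM in empty vector, knockdown and rescued libraries (log2 difference -2.41 ± 0.076). DUSP5, a phosphatase of ERK, fell from 228, 238 and 229 CPM in the control to 125 and 129.9 CPM in the rescued libraries, and FOSB from 1.94, 1.16 and 1.36 CPM to 0.333 and 0.25 CPM. No rescued library of these 4 genes overlapped a control library. Of the 3 higher calls, IER5 (0.44 ± 0.072) was the one left when any knockdown or rescued library was left out, and with RLE scaling, DESeq2 or no filter; the list then held 1 higher gene.

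Some of the interferon-stimulated genes were still raised. Interferons induce these genes, many of which are antiviral. Of 60 tested genes 28 were higher and 6 lower in rescued cells (median 0.24), 15 of the higher ones by 2-fold or more; 23 of the genes called were still different from the control. MX1, an antiviral GTPase, was at 12.3, 11 and 12 CPM in the empty vector, 61.1, 59.6 and 58 CPM in the knockdown and 47.9 and 49 CPM in the rescued libraries (log2 difference 2.04 ± 0.068, edgeR adjusted p = 1.03e-08). The rescued libraries stood between the groups and nearer the knockdown. XAF1, a proapoptotic interferon target, was at 2.4, 2.02 and 2.18 CPM in the control and 13.8 and 13.4 CPM in the rescued libraries, and IFI44 at 0.497, 0.657 and 0.767 CPM and 3.91 and 4.59 CPM. CXCL10, a chemokine, was past the control, with 7.91, 7.99 and 7.73 CPM in the empty vector, 5.33 CPM on average in the knockdown and 22.3 and 20.4 CPM in the rescued libraries. STAT2, which transmits the interferon signal, was lower at -0.23 ± 0.045, as was UBE2L6, the conjugating enzyme of ISG15, at -0.31 ± 0.071. Counts of MX1 were not whole in 3 or more libraries.

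MHC class II genes present peptides to T helper cells and are under control of the transactivator CIITA. Of 17 tested, 13 were higher and 0 lower by edgeR, with a median of 0.47; 0 were lower at an unadjusted p below 0.05, 1 was lower with DESeq2 and 2 with a GC correction. HLA-DQA1 was at 3.75, 4.35 and 3.83 CPM in the empty vector, 22.4, 21.7 and 25.9 CPM in the knockdown and 24.4 and 25.4 CPM in the rescued libraries. Rescued and knockdown libraries overlapped, and all lay above the control (log2 difference 2.64 ± 0.11, edgeR adjusted p = 3.07e-08). HLA-DQB1, the partner chain, was at 1.99, 2.02 and 1.77 CPM in the control and 13 and 11.6 CPM in the rescued libraries, part of the way back from a knockdown mean of 26.2 CPM. HLA-DRB1 moved from 86, 88.6 and 75.6 CPM to 148 and 146 CPM (log2 difference 0.81 ± 0.064). CIITA had no call in the knockdown and was higher in rescued cells, at 64.3 and 61.7 CPM against 48.5, 45.5 and 42.6 CPM. Some MHC class II genes have close paralogs, such as the DRB genes, and the counts of 11 of the 17 were not whole in 3 or more libraries, so values of such single genes are uncertain. Among 19 MHC class I and peptide loading genes 9 were higher and 2 lower, HLA-B at 0.45 ± 0.048 and HLA-F at 0.48 ± 0.061, with B2M, the shared light chain, lower at -0.30 ± 0.062; the number lower was 4 without empty vector replicate 3 or with DESeq2 and 1 without rescued replicate 1. Among genes with whole counts 1 of this list was higher, and its median went from 0.14 to -0.093.

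**Figure D5:**
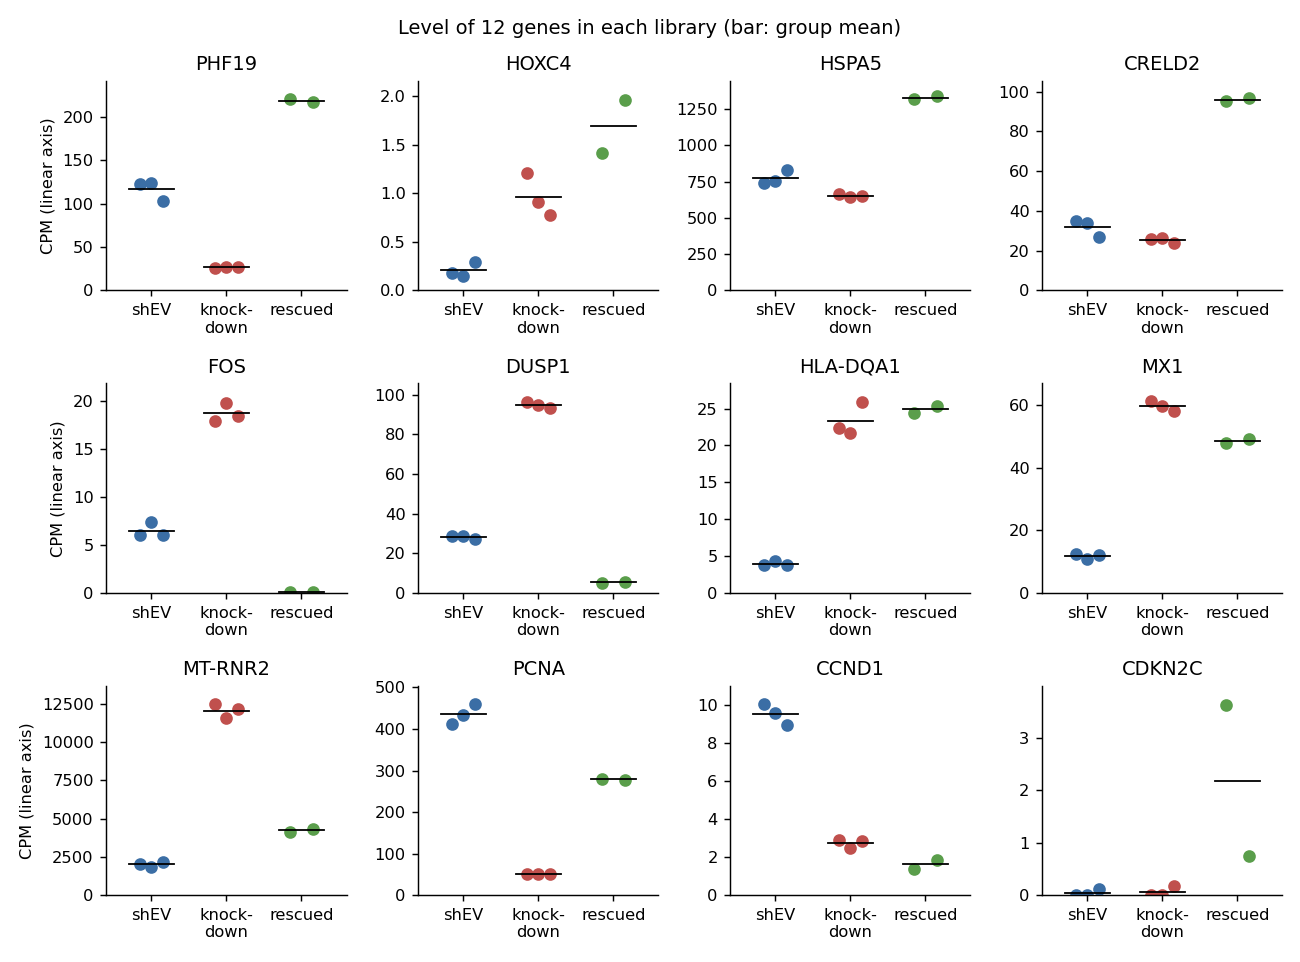
Level of 12 genes in CPM (vertical axes, linear, from 0) in each empty vector (3), knockdown (3) and rescued (2) library, with bars at the group means. Rescued libraries lie above both other groups for CRELD2, beside the knockdown for HLA-DQA1 and near 0 for FOS.

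All 18 mitochondrially encoded RNAs were higher in rescued cells and still on the side of the knockdown, with a median of 0.85; 0 were lower by edgeR, at an unadjusted p below 0.05 or with DESeq2. MT-RNR2, the large ribosomal RNA of mitochondria, was at 2045, 1851 and 2177 CPM in the empty vector, 12465, 11529.5 and 12119.8 CPM in the knockdown and 4144 and 4353 CPM in the rescued libraries (log2 difference 1.07 ± 0.063, edgeR adjusted p = 4.74e-07). MT-RNR1, the small one, was at 175, 161 and 185 CPM and 326 and 328 CPM, and MT-ND3, a subunit of complex I, at 348, 337 and 357 CPM and 546 and 623 CPM in control and rescued libraries. All rescued libraries lay above the control libraries and below the knockdown libraries for MT-RNR2. The share of reads on mitochondrially encoded genes was 2.84% to 3.32% in the empty vector, 4.99% to 5.18% in the rescued and 9.02% to 10.0% in the knockdown libraries, so the share separated the 3 groups. The part of this share in the results for other genes was not tested. A refit from which these genes were removed before filtering and scaling tested 16655 genes. It called 6723 of them, with 46.7% of calls higher.

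Of the nuclear genes of oxidative phosphorylation, 4 of 50 were higher and 17 lower (median -0.11). The catalytic subunit ATP5B of ATP synthase differed by -0.32 ± 0.045, NDUFS1 of complex I by -0.30 ± 0.045 and SDHD of complex II by -0.34 ± 0.052, against NDUFB6 at 0.32 ± 0.062 and NDUFV1 at 0.40 ± 0.076. The number lower was 27 without empty vector replicate 3, 9 without rescued replicate 1 and 10 without rescued replicate 2. With DESeq2, with RLE scaling or without either rescued library 2 were higher. Among genes with whole counts 2 were higher and 4 lower, with a median of 0.013.

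Many cytosolic ribosomal protein genes were lower, in a number that depended on single libraries. It was 51 of 60 without empty vector replicate 3, and smaller than in the main fit without rescued replicate 1. In rescued cells 36 of 60 were called lower and 0 higher by edgeR (0 higher at an unadjusted p below 0.05 and 0 with DESeq2), with a median of -0.23, and 31 of them were past the control after a rise in the knockdown. RPS4X was at 1941, 2038 and 2141 CPM in the empty vector, 2379.9 CPM on average in the knockdown and 1365 and 1391 CPM in the rescued libraries (log2 difference -0.57 ± 0.048). RPSA and RPS24 had no call in the knockdown and differed by -0.63 ± 0.058 and -0.55 ± 0.057. Ribosomal protein genes have many processed pseudogenes, and the counts of all 60 were not whole in 3 or more libraries, so the value of a single gene is uncertain. Of 15 histone genes 6 were lower and 0 higher by edgeR, with 1 higher by DESeq2; H3F3B, a replication-independent H3.3 gene, was at 558, 542 and 587 CPM and 365 and 369 CPM in control and rescued libraries. Without rescued replicate 2 the number of lower histone genes was 3.

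Genes of plasma cell and myeloma identity were lower more often than higher, 19 against 7 of 33 tested (median -0.25). GPRC5D, a surface receptor used as a therapy target, was at 38.7, 40.9 and 41.3 CPM in the empty vector, 7.99 CPM on average in the knockdown and 21.6 and 19.5 CPM in the rescued libraries. It had come part of the way back (log2 difference -0.97 ± 0.073, edgeR adjusted p = 2.21e-06). CD38, another therapy target, was past the control, at 147, 146 and 151 CPM in the empty vector, 332 CPM in the knockdown mean and 101 and 97.2 CPM in the rescued libraries. PRDM1, the factor that drives plasma cell differentiation, and the kinase PIM2 had no call in the knockdown and were lower at -0.42 ± 0.044 and -0.60 ± 0.042. Among the 7 higher genes, FKBP11, an ER prolyl isomerase, went from 184, 188 and 174 CPM to 303 and 305 CPM and MZB1, an ER protein of antibody assembly, from 836, 837 and 757 CPM to 1075 and 1122 CPM. IL6ST, the signalling chain of the IL-6 receptor, was higher at 0.46 ± 0.049. Without rescued replicate 2 the number higher in this list was 3.

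Of 16 B cell genes 7 were lower and 1 was higher, the latter being CIITA. BTK, the kinase of B cell receptor signalling, was at 27.5, 26.3 and 27.6 CPM in the empty vector, 79, 74 and 77.1 CPM in the knockdown and 13.3 and 13.1 CPM in the rescued libraries, so knockdown and rescued cells lay on opposite sides of the control (log2 difference -1.04 ± 0.068). FCRLA, an intracellular Fc receptor-like protein, was at 18.2, 17.5 and 17.9 CPM in the control and 6.99 and 7.39 CPM in the rescued libraries, and the repressor BACH2 at 17.8, 15.8 and 15.6 CPM and 10.1 and 9.85 CPM. The number of higher genes in this list was 2 without empty vector replicate 2 or rescued replicate 2.

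Of 16 genes of the MAF program 2 were higher and 8 lower (median -0.39; 5 lower and a median of -0.024 among genes with whole counts). AHNAK, a large scaffold protein, had the steepest fall: 189, 205 and 207 CPM in the empty vector, 66, 55.1 and 63.7 CPM in the knockdown and 25.9 and 25.8 CPM in the rescued libraries. The 3 groups did not overlap, and the rescued cells were further from the control than the knockdown (log2 difference -2.95 ± 0.080, edgeR adjusted p = 3.09e-09). The chemokine receptor CCR1 was part of the way back, at 255, 255 and 272 CPM in the control and 171 and 172 CPM in the rescued libraries. The receptor CX3CR1 was raised in rescued cells only, from 0.362, 0.354 and 0.413 CPM to 2.37 and 2.92 CPM.

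Receptor and survival genes moved in both directions. Among 36 cytokine receptor and JAK-STAT genes 6 were higher and 10 lower; the Janus kinase TYK2 was at 92.1, 90.4 and 74.9 CPM and 151 and 150.4 CPM in control and rescued libraries, IL21R at 23.4, 22.1 and 18.3 CPM and 39.2 and 35.3 CPM, and IL10RA was lower at -0.35 ± 0.051. The number lower in this list was 4 without either rescued library. Of 29 NF-kB genes 9 were higher and 4 lower. TRAF1, an adaptor of TNF receptors and NF-kB target, was at 6.19, 5.01 and 5.19 CPM in the empty vector, 52.4, 42.2 and 47.6 CPM in the knockdown and 24.3 and 26.3 CPM in the rescued libraries, between both groups (log2 difference 2.2 ± 0.12). The chemokine CCL5 was higher at 1.23 ± 0.082 and CCL3 lower at -0.63 ± 0.049. Without rescued replicate 1 the NF-kB counts were 5 higher and 2 lower, and with a GC correction 7 were lower. In the BCL2 family 5 of 14 were lower, among them BCL2 itself at -0.40 ± 0.051 and the proapoptotic BCL2L11 and BMF at -0.62 ± 0.049 and -0.35 ± 0.044, and 2 were higher, of which 1 remained without empty vector replicate 1 or 2 or either rescued library.

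Adhesion, matrix and guidance genes were mixed too. Among all genes 20.7% were higher and 19.1% lower. Against these shares the collagen and guidance lists held little excess in either direction, and the integrin list held more lower calls. Of 33 integrin and adhesion genes 7 were higher and 12 lower, with the endothelial adhesion molecule PECAM1 at 14, 13.3 and 13.8 CPM and 27.5 and 27.5 CPM and the hyaluronan receptor CD44 at 722, 725 and 760.1 CPM and 529.9 and 534 CPM in control and rescued libraries. The number higher there was 3 without rescued replicate 1 and 2 without rescued replicate 2, and 4 with DESeq2. Among 37 collagen and matrix genes 5 were higher and 8 lower, fibronectin FN1 going from 12.1, 12.3 and 10.3 CPM to 29 and 29.4 CPM and laminin LAMC1 from 39.2, 39.2 and 37.9 CPM to 24.7 and 25.5 CPM. Of 28 semaphorin, ephrin and guidance genes 7 were higher and 4 lower, with 4 higher by DESeq2 and 7 lower after a GC correction. SEMA4D, a semaphorin of immune cells, was at 90.8, 88.3 and 80.2 CPM and 139 and 141 CPM in control and rescued libraries, and its receptor family member PLXNA3 at 31.1, 28.4 and 25.2 CPM and 50.2 and 53.2 CPM. The ephrin receptor EPHB2 had 1.13, 1.82 and 1.71 CPM in the control and 0 reads in both rescued libraries, at least 24.9-fold lower when the floor is set at 3 reads over the group.

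Of 36 genes of cholesterol synthesis and transport 8 were higher, a share near the 20.7% of all genes, 1 (ACAT2) was lower and 27 were not called. The higher genes were all but 1 still different from the control, including the exporters ABCG1 and ABCA1 and the lipogenic factor SREBF1. ABCG1 was at 11.2, 11.1 and 9.2 CPM in the empty vector, 60.3, 66.3 and 66.5 CPM in the knockdown and 28.7 and 24.2 CPM in the rescued libraries, and ABCA1 was at 2.76, 2.78 and 3.13 CPM in the control, 32.2 CPM in the knockdown mean and 6.78 and 6.59 CPM in the rescued libraries. For both the rescued libraries lay between the groups, with log2 differences of 1.32 ± 0.10 and 1.22 ± 0.12. Both are known targets of liver X receptors. The list had 5 higher genes without either rescued library and with DESeq2, and more lower genes, 4, with RLE scaling or without empty vector replicate 3, and 6 with a GC correction; ACAT2 was not called without empty vector replicate 1 or either rescued library. Of 31 glycolysis and hypoxia genes 4 were higher and 11 lower, PGAM1 of glycolysis at -0.52 ± 0.044 and the hypoxia target NDRG1 at -0.45 ± 0.054; the number higher was 2 without either rescued library.

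Among the genes with the largest rises were members of the collagen and matrix list. COL6A3, a collagen chain, was raised in rescued cells only: 3 reads in the empty vector libraries together and 348 in the rescued libraries, a ratio of 142 with a 95% counting interval of 48.3 to 693. The rescued libraries were unequal, at 10.2 and 4.3 CPM, and the fitted log2 difference of 6.97 was 6.20 without rescued replicate 1 and 7.71 without empty vector replicate 1. ADAMTS2, which cleaves procollagen, was at 0.181, 0.506 and 0.177 CPM in the empty vector, 0.093, 0 and 0.0867 CPM in the knockdown and 11.9 and 12.6 CPM in the rescued libraries (log2 difference 5.37 ± 0.27, edgeR adjusted p = 1.66e-07; 6.04 without empty vector replicate 2). MYO1F, a class I myosin of immune cells, went from 2.31, 1.67 and 1.65 CPM to 13 and 12.6 CPM, past the control. For ADAMTS2 and MYO1F every rescued library lay above every control library.

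Other genes with large rises were past the control. CHTF18, which loads the clamp PCNA, was at 31.5, 34.9 and 26.6 CPM in the empty vector, 9.35 CPM on average in the knockdown and 95.7 and 97 CPM in the rescued libraries. The helicase PIF1 was at 9.72, 8.39 and 7.49 CPM and 22.9 and 21.1 CPM, and the branched-chain aminotransferase BCAT1 at 2.35, 2.53 and 3.89 CPM and 6.86 and 6.97 CPM, in control and rescued libraries. All 3 were lower in the knockdown and higher in the rescued cells than in the control.

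Several genes were far below the control in rescued cells and also lower in the knockdown. SLC17A9, the vesicular nucleotide transporter, was at 9.81, 9.46 and 9.38 CPM in the empty vector, 0, 0 and 0.0867 CPM in the knockdown and 0.624 and 0.209 CPM in the rescued libraries. It had come back very little, with a log2 difference from the control of -4.5 ± 0.29 (edgeR adjusted p = 8.19e-07; -5.47 without rescued replicate 1). FES, a tyrosine kinase of myeloid cells, was at 5.88, 6.27 and 4.95 CPM in the control and 0.416 and 0.292 CPM in the rescued libraries. Its knockdown libraries were at 0.279, 0 and 0 CPM, and it had no call between rescued and knockdown cells. SECTM1, a secreted and transmembrane protein, was further away than the knockdown: 22.1, 22 and 19.3 CPM, 9.86, 10.0 and 11.2 CPM and 2.2 and 1.88 CPM in empty vector, knockdown and rescued libraries. IGF2BP3, an RNA-binding protein of fetal tissues, had recovered in part, at 12.5, 12 and 13.5 CPM in the control, 0.672 CPM in the knockdown mean and 3.08 and 2.25 CPM in the rescued libraries.

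Others fell below the control after a rise in the knockdown. ADARB1, the RNA-editing enzyme ADAR2, was at 15.8, 16.8 and 16 CPM in the empty vector, 47.4, 48.6 and 47 CPM in the knockdown and 1.66 and 2.25 CPM in the rescued libraries. The rescued cells differed from the control by -3.05 ± 0.12 on the log2 scale, while the knockdown was higher by 1.56. DOCK1, an activator of the GTPase RAC1, had the same order, at 2.35, 1.72 and 2.42 CPM in the control and 0.25 and 0.0417 CPM in the rescued libraries (log2 difference -3.83 ± 0.43; -5.47 without rescued replicate 1 and -3.08 without rescued replicate 2). CYBB, the catalytic subunit of the phagocyte NADPH oxidase, was lowered in rescued cells only, from 20.3, 20.6 and 25 CPM to 8.23 and 7.26 CPM.

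Plasma cell markers were high, and most markers of other cell types were at or near 0, with CD68, HBD, HBB and PECAM1 as the measured exceptions. The summed level of 11 plasma cell markers was 11012 to 12091 CPM in the empty vector and 10122 to 10155 CPM in the rescued libraries. Of 12 T and NK cell markers 4 passed the filter and 0 were called by edgeR (0 at an unadjusted p below 0.05 and 0 with DESeq2); their sum was 3.19 to 3.48 CPM in the empty vector and 2.66 to 3.42 CPM in the rescued libraries, with CD3D and NKG7 at 0 in all 5. Of 8 monocyte markers 2 were tested, and the summed level was 20.1 to 22.9 CPM in the empty vector and 9.60 to 10.2 CPM in the rescued libraries; CD68, which made up most of it, was lower at -1.15 ± 0.10, while S100A8 and FCGR3A were at 0. PDGFRB was the called marker among 10 of fibroblasts, lower at -1.24 ± 0.26, with LUM, PDGFRA and THY1 at 0 and sums of 2.53 to 2.73 CPM and 0.915 to 1.54 CPM. Epithelial markers summed to at most 0.374 CPM in any of the 5 libraries. PECAM1, also expressed by plasma cells, was the tested one of 5 endothelial markers, which summed to 13.3 to 14 CPM and 27.5 CPM in control and rescued libraries, with TEK at 0. Of 6 erythroid markers HBB and HBD were tested and called higher, from a summed level of 51.0 to 53.3 CPM to one of 59.1 to 61.1 CPM; neither was called with DESeq2, without empty vector replicate 1 or 2 or without either rescued library. 

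Reads were also divided for many of the other genes described, so their levels carry the same uncertainty. Among Polycomb genes these are EZH2, SUZ12, BMI1, PCGF3, PCGF6 and HOXB3. Among cell cycle and growth genes they are PCNA, PRIM1, BUB3, MAD2L1, CCND1, CCND2, MDM2, CHTF18, NOP56 and EIF4A1. Among stress, respiratory and metabolic genes they are ATF4, DDIT3, ASNS, MTHFD2, HSPA8, HSPD1, DNAJA1, DNAJB1, MT-RNR2, NDUFS1, NDUFV1, SDHD, PGAM1, ACAT2 and ABCG1. Among immune, surface and other genes they are HLA-B, HLA-F, CIITA, CD38, CD44, CD68, CCL3, IL6ST, IL21R, PLXNA3, IGF2BP3, HBB, HBD and H3F3B.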

How the data were processed

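RNA was extracted from MM1S cells and made into Illumina TruSeq libraries from 1 ug of total RNA, per the labels' protocols. Estimated counts of 58387 genes were deposited by the authors in 1 table. Of all values in the 5 libraries compared, zeros included, 17.2% to 19.4% are not whole. The share among values above 0 is larger. The submitters' processing notes list RSEM, CASAVA and the build hg19, but the name of the table refers to another program, so which of them made the counts is not settled. The annotation, strand setting and filters, not given in the sources used here, could not be checked. Estimated counts were rounded. The 8 libraries of the 3 groups were fitted together with edgeR 4.0.16 (R 4.3.3; TMM scaling, filterByExpr, robust quasi-likelihood, no block), keeping 16600 genes, and the log2 difference, its standard error and Benjamini-Hochberg adjusted p were taken over all of them; CPM use TMM-scaled depths. DESeq2 1.42.0, limma 3.58.1, other scalings, filters, a replicate block and single libraries left out were alternatives; a GC correction and a subset of genes with whole counts were added after seeing the data. Replicate numbers do not pair the samples: deviations from the group means correlated at -0.0100 and -0.0071 between same-numbered rescued and empty vector libraries.

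Genes were named as the largest changes and, per list and class, those with the lowest adjusted p or largest change. Beyond that rule, EZH2, EED, CANX and further ER folding genes (ERO1LB, SDF2L1, HYOU1, DNAJB9, SEC61B, PDIA4, EIF2AK3) were chosen after their values were seen. Some genes that the rule names are not reported here. The members and lists were chosen with earlier results of these data known. Promoter sequences come from RefSeq (GRCh38.p14) and transcript GC content from GENCODE 29, matched by symbol. On simulated counts for this comparison (16600 genes, 50 changed per size), 24% of 1.25-fold, 52% of 1.5-fold, 74% of 2-fold and 86% of 4-fold changes were recovered, and 10.6% of calls were unchanged genes. Far fewer genes were changed there than the 6599 called in the data. The adjusted p depends on that number, so these shares do not carry over to the data.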

Additional observations from a re-analysis of the deposited data

How the results depend on the processing

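PHF19 kept its direction and call in every alternative, and no called result reversed. Under the alternatives, a named gene counted as the same if its call did not change, and a list count if it stayed within 1.5 times. A list median counted as the same if it moved less than the spread between libraries of a group. By these rules 5691 values stayed the same, 287 moved, 124 lost a call and 1 gained one. With DESeq2, 2226 genes were called higher. A filter at 5 CPM left 477 genes called at 2-fold or more. Among the 8551 genes whose counts were whole in at least 3 of the 5 libraries, which leaves out genes by construction, 3841 were called, 1939 higher and 1902 lower, 665 at 2-fold or more, 2199 still different, 835 past the empty vector and 807 in rescued cells only. Leaving out 1 library gave 4048 to 7539 genes called, 2168 to 3714 higher, 1880 to 3825 lower, 2396 to 4319 still different, 816 to 1751 past and 836 to 1635 in rescued cells only; the fewest came without rescued replicate 2 and the most calls without empty vector replicate 3. With the replicate number as a block, 6387 genes were called, 5938 of them shared with the same sign. On simulated counts for this comparison, small changes were recovered less often than large ones.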

Other observations

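The genes called lower in rescued cells were more highly expressed and more often protein-coding than those called higher. By symbol, 74.3% of the genes called lower matched a protein-coding gene of GENCODE 29, against 54.0% of those called higher and 59.1% of all genes tested. The median log2 CPM was 5.47 in genes called lower, 4.16 in genes called higher and 3.97 in all genes. Among genes higher by 2-fold or more, 36.3% matched a protein-coding gene and the median log2 CPM was 0.91; these 906 genes thus lie mostly near the low end of expression. Symbols without a match count as not protein-coding here.

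IL2RA, the alpha chain of the IL-2 receptor, was chosen after its values were seen. It had 0 reads in all empty vector and knockdown libraries and 1.12 and 0.668 CPM in the rescued libraries, at least 17.6-fold higher than the empty vector when the floor is set at 3 reads over the group.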
